A study of Mus musculus with 56 samples.

Results

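Gas6 and Pros1 are secreted ligands, and Axl, Mertk and Tyro3 are the TAM receptor tyrosine kinases that they activate. These 5 genes were chosen by symbol, with 1 probe each, from the 15063 named genes on a mouse oligonucleotide array, and the choice followed their ratios between cell lines in these same data. The values between cell lines are therefore a description and carry no test. The arrays compared OV, a mouse ovarian surface epithelium line, with 3T3, a mouse fibroblast line. In each of 7 comparisons 4 two-color arrays held an OV target and a 3T3 target, with the dyes swapped on 2 of them. The target was unamplified cDNA from 100 μg of total RNA, or was amplified from 10 ng by IVTIII (3 rounds of T7 in vitro transcription, giving cRNA), GA (global PCR amplification), SMART (template-switching PCR) or SM37 (a modified SMART), or from 10 pg by SMART or GA. Other arrays held 2 targets of the same OV RNA, the same target in both dyes, or aliquots of 1 RNA sample from mouse neocortex progenitor cells at stage E11.5. The labels give no treatment of either line and name no separate cultures. By the paper, the comparisons of unamplified cDNA and of targets from 10 ng held 2 independent replicates per line with dye swaps. For the comparisons at 10 pg the paper does not state the replicates. In what follows n counts arrays, which are not all separate samples, so spreads and p-values measure only the differences between these samples, which may be technical.

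Gas6 and protein S (Pros1) are vitamin K-dependent proteins. Their Gla domains, once carboxylated, bind phosphatidylserine on dying cells, and their other end binds a TAM receptor on a neighboring cell. The receptors drive engulfment of dying cells, support survival and damp innate immune signaling. Gas6 binds every TAM receptor and binds Axl most tightly, while Pros1 acts through Mertk and Tyro3. Gas6 takes its name, growth arrest-specific, from fibroblasts that stop dividing in low serum. The genes lie on GRCm38.p6 at chr8:13465374-13494535 (Gas6), chr16:62854307-62929346 (Pros1), chr7:25756500-25788924 (Axl), chr2:128698915-128803162 (Mertk) and chr2:119797740-119818104 (Tyro3). Where each probe lies within its gene was not analysed here.

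The log2 ratios were taken to be Cy5 over Cy3, and the sign was reversed where the labels place 3T3 in Cy5, so that a positive value is higher in OV. The methods give both directions in different places, so this is the likely reading, and every sign between the lines would turn under the other. Xist, the RNA that coats the inactive X chromosome, had a mean log2 ratio of 3.21 ± 1.30 (SD, n = 4) in unamplified cDNA, and Cdkn2a, a locus deleted in many 3T3 lines, had 1.58 ± 0.11 (SD, n = 4). Of 11 ovarian surface epithelial and mesothelial markers with values on all 4 unamplified arrays, 7 were called higher in OV, among them Upk1b (4.26), Wt1 (3.65), Krt8 (3.44) and Gata6 (3.29), while Krt18 (-0.75, named after its value was seen) was called lower. Of 8 fibroblast markers, Prrx1 (-3.33), Thy1 (-0.97) and S100a4 (-0.69, named after its value was seen) were called lower in OV, Col1a1 (1.47) was called higher, and Twist2 had -0.88 without a call. Of 4 macrophage markers with full values, Cd14 (1.26) was called higher, and Itgam (0.22), Cd68 (0.18) and Lyz2 (-0.05) were not. Any part of such cells in the results was not tested. GA at 10 pg stood apart: no marker of ovarian surface epithelium was called among 7, and their median log2 ratio was -0.28. The negative median puts most of the 7 markers below 0. Krt8 (mean 1.77) and Wt1 (mean 0.82) went the other way, above 0 on all 4 arrays with the labeled direction. Xist had -0.10, and Cdkn2a had -0.25 on 3 arrays. The slope of the ratios of GA at 10 pg on those of unamplified cDNA over 4736 genes was -12.1%. The slope lay between 34.5% and 57.2% in the other amplified comparisons. The values of GA at 10 pg are given with the labeled direction and kept out of the counts over comparisons. This choice was made after the data were seen. Probes with a value ranged from 2303 to 5137 per array in SMART at 10 pg, 5667 to 7728 in IVTIII and 14198 to 18274 in unamplified cDNA. Intensities were not analysed here, so the signal behind a ratio is unknown and levels cannot be compared between genes.

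Gas6 was higher in OV than in 3T3 in the 6 comparisons other than GA at 10 pg, and its mean ratio was the largest of the members in each of them. In unamplified cDNA its log2 ratios on arrays 1 to 4 were 4.03, 3.64, 2.77 and 3.90. Array 3 was the lowest, and all 4 lay far above 0. The mean of 3.58 ± 0.57 (SD, n = 4) corresponds to 12.0 times as much Gas6 signal from OV RNA as from 3T3 RNA, and it was the 9th highest of 12169 genes with values on all 4 arrays. From such RNA pools, fewer expressing cells and less RNA per cell cannot be told apart. Over these 6 comparisons Gas6 had a value on 22 of 24 arrays and was above 0 on 22, and on 21 of these no other member was higher. The exception was array 3 of SM37, where Tyro3 had 0.64 and Gas6 0.42.

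Amplified targets gave smaller Gas6 ratios. GA from 10 ng gave 2.06, 2.26, 2.16 and 3.16 on arrays 1 to 4, with a mean of 2.41 ± 0.51 (SD, n = 4), 5.32-fold, and only array 4 reached the range of unamplified cDNA. SMART gave 0.71, 1.69, 1.95 and 1.45, with a mean of 1.45 ± 0.54 (SD, n = 4), 2.73-fold. Its array 1 was well below the others, and the whole range lay below the lowest array of GA. Over all probes, the deposited ratios of SMART arrays 1 and 4, labeled with opposite dyes, had r = 0.09. The other pairs of SMART arrays with opposite dyes had r between -0.70 and -0.36, so these 4 arrays were not equally concordant. IVTIII gave 0.50, 1.13, 0.85 and 1.17, with a mean of 0.91 ± 0.31 (SD, n = 4), 1.88-fold. SM37 gave 1.30, 1.36, 0.42 and 0.48, with a mean of 0.89 ± 0.51 (SD, n = 4), 1.85-fold. Arrays 1 and 2 of SM37 were alike and so were arrays 3 and 4, which by their numbers may be dye-swap pairs of separate amplifications, a pairing that the labels do not state.

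At 10 pg, the RNA content of about a single cell, Gas6 was measured on fewer arrays. SMART gave 0.11 and 1.27 on arrays 1 and 2 and no value on the others, and the mean was 0.69. GA gave no value on array 1, then 0.34, 2.38 and 3.15, with a mean of 1.95 ± 1.45 (SD, n = 3). Arrays 3 and 4 were high and array 2 was near 0, and with the sign of this comparison turned the mean would be -1.95.

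Ordered by mean, unamplified cDNA was first and was followed by GA from 10 ng, GA at 10 pg, SMART from 10 ng, IVTIII, SM37 and SMART at 10 pg. With its sign turned GA at 10 pg would be last, from -3.15 to -0.34, and separate from unamplified cDNA. With the labeled direction the ranges of arrays overlapped between every pair of neighbors in this order. Against unamplified cDNA the ranges of SMART, IVTIII, SM37 and SMART at 10 pg were separate, and those of both GA comparisons overlapped. Gas6 kept 67.3% of its unamplified log2 ratio in GA from 10 ng, where the slope over 6062 genes was 51.2%, and 40.5% in SMART, where the slope over 7662 genes was 34.5%. It kept 25.5% in IVTIII against a slope of 57.2% over 4188 genes, and 24.9% in SM37 against 37.7% over 6234 genes. In SMART at 10 pg it kept 19.3% against 34.7% over 1231 genes. In GA at 10 pg, with the labeled direction, it kept 54.5% against a slope of -12.1% over 4736 genes. Outside GA at 10 pg, the Gas6 mean thus lay above the slope in GA and SMART from 10 ng and below it in IVTIII, SM37 and SMART at 10 pg. Its arrays spread widely, from 0.71 to 1.95 in SMART and 0.11 to 1.27 in SMART at 10 pg. Whether a share differed from the slope beyond this spread was not tested. The slopes used genes with values on all 4 arrays, so Gas6 was not among them in either comparison at 10 pg. All of these shares use the same unamplified arrays. An array of GA and an array of IVTIII have labels that contradict themselves. Without them the Gas6 means were 2.46 and 1.05.

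The second ligand, Pros1, had ratios close to 0 that leaned toward 3T3. In unamplified cDNA arrays 1 to 4 gave -0.44, -0.23, -0.37 and 0.02, with a mean of -0.26 ± 0.20 (SD, n = 4), so the groups differed by little more than the spread. IVTIII gave -0.43, -0.31, -0.35 and -0.01, and GA from 10 ng gave -0.29, -0.05, -0.57 and -0.33. Every value of both was below 0. SMART gave 0.09, 0.11, -0.17 and -0.37 with no common sign. SM37 gave -0.52, -0.58, -0.28 and -0.73, the lowest mean of Pros1 at -0.53 ± 0.18 (SD, n = 4), which is 1.44 times as much in 3T3. Pros1 had no value in SMART at 10 pg, and in GA at 10 pg it spread from -0.59 to 0.39. Without GA at 10 pg, 17 of 20 values were below 0, and the array ranges of all comparisons with a value overlapped that of unamplified cDNA.

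Among the receptors, Axl, the main partner of Gas6 in many epithelia and fibroblasts, was the only member with a value on all 28 arrays. In unamplified cDNA it gave -0.17, -0.16, -0.38 and -0.40, and all 4 arrays were slightly below 0, with a mean of -0.28 ± 0.13 (SD, n = 4), 1.21 times as much in 3T3. SMART gave -0.08, -0.37, -0.47 and -0.72 from 10 ng and -0.14, -0.24, -0.33 and -0.39 from 10 pg. SM37 gave -0.35, -0.30, -0.79 and -0.26, with array 3 apart from the rest. These 3 comparisons were below 0 on every array, with means of -0.41 ± 0.26, -0.28 ± 0.11 and -0.42 ± 0.25 (SD, n = 4 each). IVTIII gave 0.07, 0.10, 0.03 and 0.12, all just above 0 and separate from the range of unamplified cDNA. GA from 10 ng ran from -0.66 on array 1 to 0.34 on array 4, and GA at 10 pg gave 0.61, 0.00, -0.03 and 0.16. Without GA at 10 pg, Axl was below 0 on 19 of 24 arrays, and its means stayed between -0.42 and 0.08.

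Mertk, the TAM receptor best known from phagocytes and the retinal pigment epithelium, was the least often measured member. It had a value on 9 of 28 arrays: on 7 of the 14 with OV in Cy5 and 2 of the 14 with OV in Cy3. The median number of probes with a value was 11975 with OV in Cy5 and 10680.5 with OV in Cy3, and whether this bears on Mertk was not tested. Unamplified cDNA gave 0.80 on array 1 and 0.70 on array 3, both higher in OV and both with OV in Cy5, so that a dye difference and a difference between lines cannot be told apart. GA from 10 ng gave 0.56 and SM37 0.31 on array 1 alone, and SMART gave 0.04 and -0.01. GA at 10 pg gave -0.58, 1.59 and 0.85 on arrays 2 to 4, and IVTIII and SMART at 10 pg gave no value.

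Tyro3, the TAM receptor known best from the nervous system, showed no common direction. Unamplified cDNA gave -0.41, -0.37, 0.35 and -0.21, with a mean of -0.16 ± 0.35 (SD, n = 4), which is within the spread. GA from 10 ng ran from -0.25 to 0.15, SMART from -0.32 to 0.15, SMART at 10 pg from -0.16 to 0.05 on 3 arrays and GA at 10 pg from -0.01 to 0.20. SM37 differed from these: it gave 0.39, 0.40, 0.64 and 0.46, all above 0, with a mean of 0.47 ± 0.12 (SD, n = 4), and its range was separate from that of every other comparison. IVTIII gave no value for Tyro3. All 75 values of Pros1, Axl and Tyro3 lay within 1 of 0 on the log2 scale, whereas Gas6 reached 4.03.

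**Figure D1:**
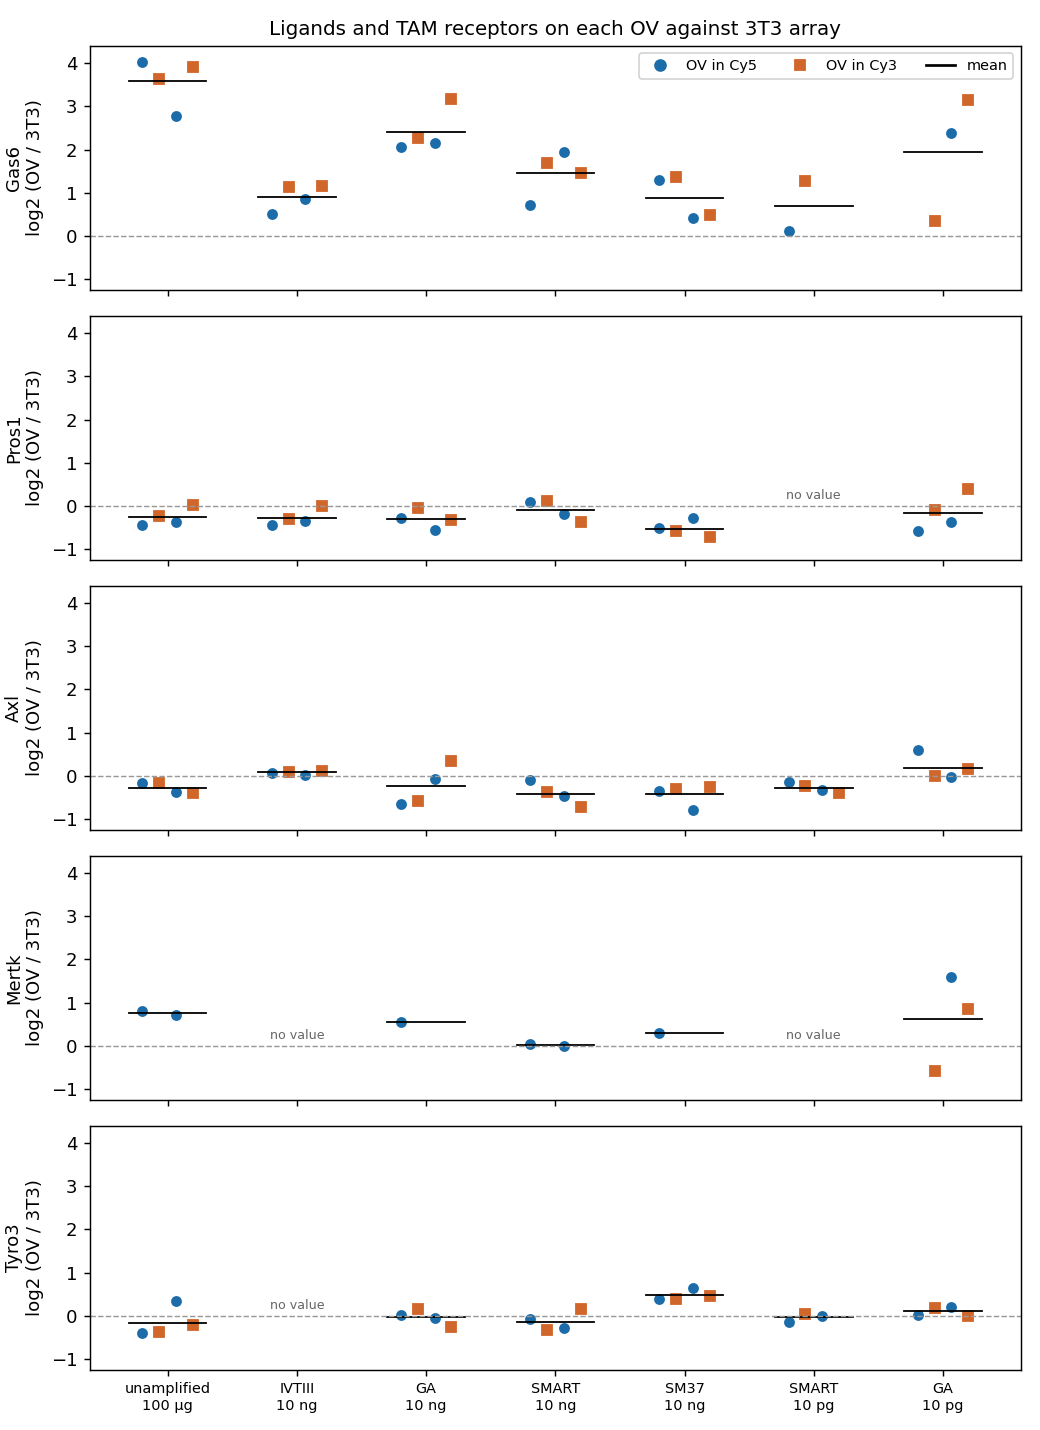
Log2 ratio of OV over 3T3 (y axis) of the ligands Gas6 and Pros1 and the receptors Axl, Mertk and Tyro3 in 7 comparisons (x axis), with 1 point per array, circles for OV in Cy5, squares for OV in Cy3 and a black line for the mean. Gas6 lies above 0 on the 22 arrays with a value outside GA at 10 pg, from 0.11 to 4.03, while Pros1, Axl and Tyro3 stay within 1 of 0.

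The calls used by the methods, an empirical Bayes log odds (LOD) above 0, are given here for completeness, because the members were chosen on this contrast. In unamplified cDNA 1 of 4 members tested was called, Gas6, where 15.1% of all genes were called. Gas6 was also the member called in IVTIII (1 of 3 tested, 21.3% of all genes called), GA from 10 ng (1 of 4, 7.85%) and SMART from 10 ng (1 of 4, 3.34%). No member was called in SM37 (4 tested, 13.9% of all genes called), SMART at 10 pg (1 tested, 8.63%) or GA at 10 pg (3 tested, 5.02%).

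Whether the dye itself moved a member is independent of the contrast between lines, since each line was in each dye. A constant for Cy5 over Cy3 was fitted in limma across all genes with a value on every array of a comparison. Mertk therefore had no test in any comparison, and Gas6 had none at 10 pg. Pros1 had no test in SMART at 10 pg, and Tyro3 had none there or in IVTIII. The remaining members and comparisons gave 23 tests. None passed an adjusted p under 0.05, and neither did any other gene in these comparisons, where 0% were called and 20 to 945 genes per comparison had an unadjusted p under 0.05. The largest dye term of a member was 0.31 on the log2 scale, and the lowest adjusted p of a member in limma was 0.604. Gas6 in IVTIII had a dye term of -0.23 with an unadjusted limma p of 0.0462 and an adjusted p of 0.808, and it was the only member below 0.05 before adjustment. With so few arrays per comparison, a test that is not passed does not show that the dye had no effect.

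The genes whose ratios over the arrays lay closest to those of Gas6 were found by the root mean square difference over its 25 arrays, among 2890 genes with a value on at least 90% of them. Krt8, a keratin of simple epithelia, was closest with a difference of 0.80, followed by Ccdc80 (0.82), a secreted matrix protein, Dhrs3 (0.89), an enzyme that reduces retinaldehyde, Wt1 (0.91), a transcription factor of the mesothelium, and Tpm1 (0.92), an actin-binding tropomyosin. In unamplified cDNA these genes had mean log2 ratios of 3.44, 2.25, 2.36, 3.65 and 2.24, so all were higher in OV and Wt1 and Krt8 lay near Gas6. In SM37 Krt8 (1.54), Ccdc80 (1.58) and Dhrs3 (1.64) had larger means than Gas6 (0.89), and Wt1 (0.38) and Tpm1 (0.62) smaller ones. In GA at 10 pg their means ran from 0.81 for Tpm1 to 2.21 for Ccdc80, which their choice by closeness to Gas6 on the same arrays favors. As a set picked in this way, these genes cannot settle the direction there. Krt8 and Wt1 are also on the marker list, and their values in GA at 10 pg are given above with the other markers. Pearson's r of each with Gas6 was between 0.72 and 0.76 across arrays, which share libraries and differ in method.

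Axl was closest to Hspe1, a mitochondrial chaperonin, with a difference of 0.26 over 28 arrays among 1604 genes. Ccdc124 (0.27), Svbp (0.28), Rpl36a (0.28), a ribosomal protein, and Pparg (0.28), a nuclear receptor of adipocytes, followed. Their unamplified means ran from -0.62 for Pparg to -0.01 for Ccdc124, and the differences between the 5 in closeness were small. Axl and these genes lay near 0 in most comparisons, so the order describes small ratios.

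**Figure D2:**
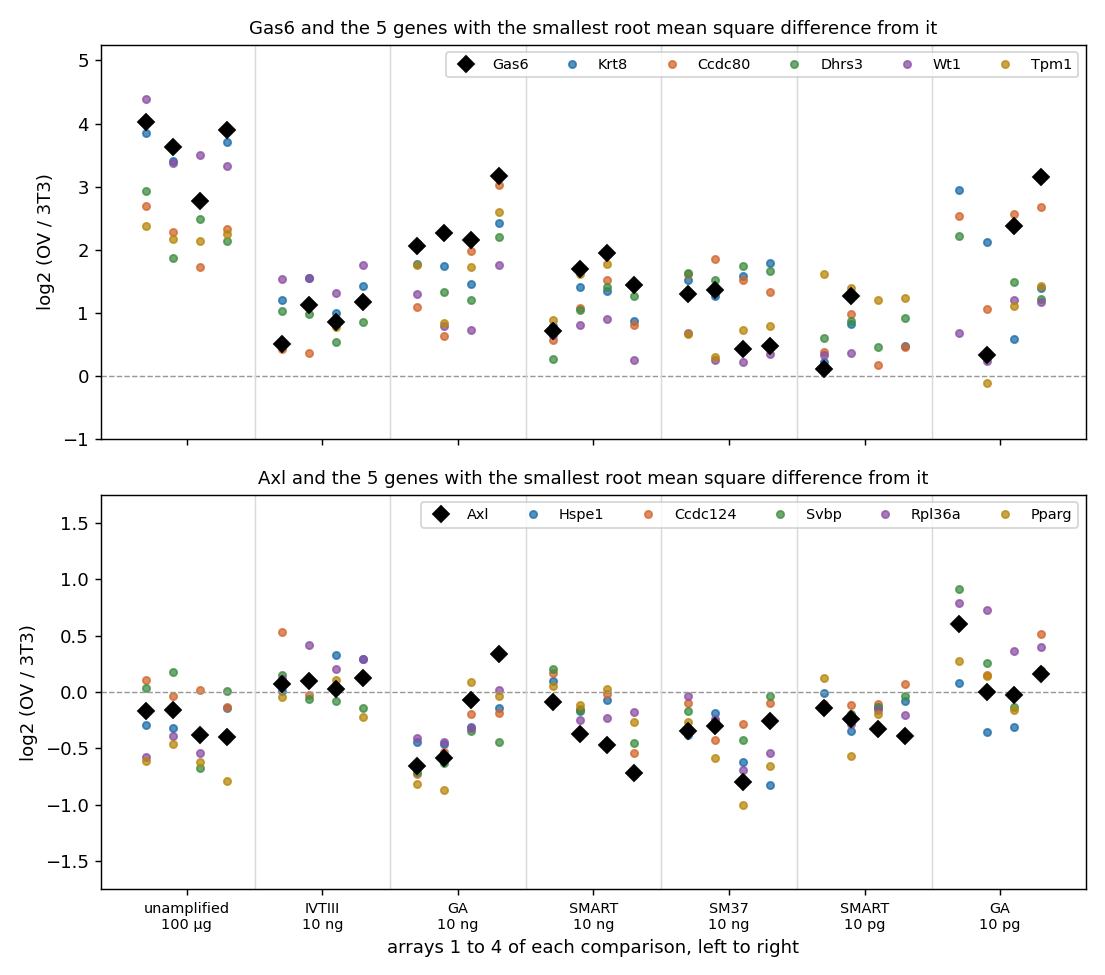
Log2 ratio of OV over 3T3 (y axis) on arrays 1 to 4 of each comparison (x axis) for Gas6 with its 5 closest genes (top) and Axl with its 5 closest genes (bottom), black diamonds marking Gas6 and Axl. Gas6 lies close to Krt8 on each array of unamplified cDNA and lies below Krt8, Ccdc80 and Dhrs3 on arrays 1, 3 and 4 of SM37.

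How far separate preparations of a target differed was seen on arrays that held 2 targets made separately from the same OV RNA, a contrast that the choice of genes did not use. The number of a replica is arbitrary, so a sign has no meaning between sets. By the paper, sets with 2 arrays were dye-swap hybridizations of 1 pair of targets. The agreement of the arrays, the SE and the p-values therefore measure the hybridizations, and not how another pair of targets would differ. The mean Gas6 log2 ratio between replicas was 0.38 in GA from 10 ng (arrays 0.37 and 0.39), -0.36 in GA from 100 pg (-0.21 and -0.50) and between -0.20 and 0.13 in the other 9 sets with a value. The unamplified array gave 0.13, and 10 pg gave 0.06 with SMART and 0.06 with GA. No set put Gas6 beyond 2 SD of all genes. Its absolute ratio was at percentile 90.2 of genes in GA from 10 ng and at percentile 80.1 in GA from 100 pg, where the unadjusted limma p was 0.0441 and the adjusted p 0.242.

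Axl was the member that differed most between replicas. In GA at 10 pg the replicas gave 2.43 and 2.17, 2 concordant arrays with a mean of 2.30 (SE 0.11), 4.92-fold, which passed the test in limma with an adjusted p of 0.0395. In that set 7.09% of 14948 genes were called, and the absolute ratio of Axl was at the 99.4th percentile. In GA at 100 pg the arrays gave -1.14 and -2.88, with a mean of -2.01 (SE 0.41), 4.04-fold, at the 99.9th percentile of 8898 genes, and the adjusted p in limma was 0.0915, where 0.978% of genes were called. Both arrays had the same sign but differed in size. In SMART at 100 pg Axl gave 0.23 and 0.56, with a mean of 0.40 at the 97.4th percentile, an unadjusted limma p of 0.0191 and an adjusted p of 0.856, and 0% of 10515 genes were called. These 3 sets were the ones with Axl beyond 2 SD of all genes. In the other 6 sets with a value its mean stayed between -0.22 and 0.22, including GA from 10 ng (-0.22), GA from 1 ng (0.22) and unamplified cDNA (-0.13, 1 array). Between the lines, Axl ranged from -0.03 to 0.61 on the 4 arrays of GA at 10 pg, so the ratio between replicas of OV alone was larger than the ratio between OV and 3T3 on any of these arrays.

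The remaining members differed less between replicas. Pros1 reached 1.11 on the only array with a value in SMART at 10 pg, its 1 set beyond 2 SD of all genes (0.63), and -0.52 on 1 array of IVTIII, and otherwise lay between -0.31 and 0.18. Mertk reached 0.51 in GA at 10 pg, where its arrays gave 0.99 and 0.04. Tyro3 stayed between -0.34 and 0.18, and neither had a set beyond 2 SD. Of 32 tests of members in the 9 sets where both arrays had values, 1 passed, and the lowest adjusted p in limma for a member other than Axl was 0.137. No member passed in GA from 1 ng (1.83% of all genes called), IVTIII (5.40%), SMART from 10 ng (0.0658%) or SMART at 10 pg (8.28%), nor in GA from 10 ng or SMART from 1 ng, where 0% of genes were called and 206 and 202 had an unadjusted p under 0.05. With 2 arrays a set, a test that is not passed does not show that replicas were equal. On self-self arrays, with the same OV target in both dyes, Axl gave 0.05 in GA, 0.01 in IVTIII and -0.01 in unamplified cDNA, and Gas6 -0.16 in GA and 0.03 in unamplified cDNA.

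**Figure D3:**
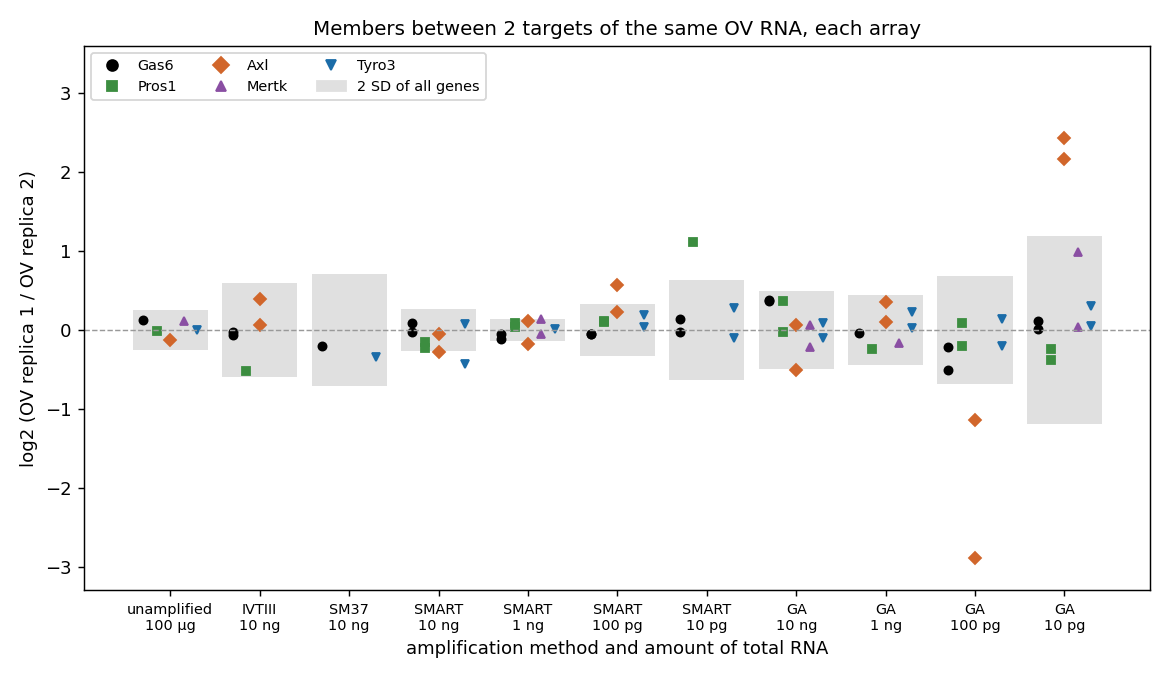
Log2 ratio between replica 1 and replica 2 of OV (y axis) by amplification method and amount of RNA (x axis), with 1 symbol per array and gene and a gray band for 2 SD of all genes in that set (SD of the means over its arrays). Axl lies far outside the band in GA at 100 pg (-1.14 and -2.88) and at 10 pg (2.43 and 2.17), and Gas6 stays inside it in every set.

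Aliquots of neocortex progenitor RNA amplified by GA gave Axl ratios of -0.43 and -0.56, with a mean of -0.49 (SE 0.12). The adjusted p in limma was 0.0521, just short of the threshold that 11.7% of genes passed. In the same set Gas6 gave 0.19 and 0.08, Pros1 0.23 and 0.32 and Tyro3 0.18 and 0.28, and Mertk had -0.56 on 1 array. With SMART, Gas6 gave -0.00 and -0.13 (adjusted p in limma 0.9998, where 0.0476% of genes were called), and Pros1 (-0.07), Axl (0.18) and Tyro3 (0.24) had a value on 1 array each. These arrays hold no second tissue, so they do not say how much of each gene the progenitor cells made.

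The pathway lists were chosen with earlier results of these data known, so their counts are a description and carry no test. Both ligands need the vitamin K cycle. Of the other genes of that cycle and the other Gla proteins, 5 of 14 tested in unamplified cDNA were called higher in OV and none lower. Of all genes, 8.24% were called higher and 6.89% lower. The median log2 ratio of the list was 0.17, against 0.00 for all genes. Mgp, matrix Gla protein, an inhibitor of calcification, gave 3.21, 2.74, 2.02 and 2.94 (mean 2.73 ± 0.51). Bglap, osteocalcin, gave 2.52, 2.28, 2.25 and 2.24 (mean 2.32 ± 0.13). Of the enzymes, Vkorc1, which regenerates reduced vitamin K, gave 1.92, 1.27, 1.56 and 1.94 (mean 1.67 ± 0.32), and Ggcx, the carboxylase that modifies Gla proteins, gave 1.37, 0.91, 1.36 and 1.23 (mean 1.22 ± 0.22). F2, prothrombin, was the fifth, with a mean of 0.51 ± 0.06, and is named although it fell outside the 4 largest. The enzymes Vkorc1l1 (0.27) and Nqo1 (-0.76), named after their values were seen, were not called. The coagulation factors F7 (-0.04), F9 (-0.09) and F10 (-0.08), also named after their values were seen, lay near 0.

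Amplified targets carried part of this list. Mgp was called higher in OV in IVTIII (1.55), GA (2.66), SMART (1.78), SM37 (1.70) and SMART at 10 pg (0.93), and had -0.53 without a call in GA at 10 pg. Vkorc1 was called in SMART (0.95) and SMART at 10 pg (0.83), and had 0.36 in IVTIII, 0.26 in GA and 0.42 in SM37 without a call. Bglap was called in GA from 10 ng (0.90). Ggcx had -0.16 in IVTIII, where all 4 arrays were below 0, and values on fewer than 4 arrays in GA, SMART and SM37. Called higher and lower in OV were 2 and 1 of 8 list genes in IVTIII, 2 and 0 of 6 in GA, 2 and 0 of 8 in SMART, 1 and 1 of 6 in SM37, 2 and 0 of 3 in SMART at 10 pg and 1 and 0 of 8 in GA at 10 pg. Of all genes, 11.1% were called higher in IVTIII, 2.17% in GA, 2.40% in SMART, 5.74% in SM37, 5.52% in SMART at 10 pg and 2.49% in GA at 10 pg, and the shares called lower were 10.2%, 5.68%, 0.937%, 8.18%, 3.11% and 2.53% in the same order.

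Of the enzymes that shed TAM receptors and the less known TAM ligands, 1 of 5 tested was called higher in OV and 1 lower in unamplified cDNA, where 8.24% and 6.89% of all genes were. Adam10, a sheddase of Axl and Mertk, had 0.61 ± 0.11 and Lgals3, galectin-3, a ligand proposed for Mertk, had -1.35 ± 0.36 (SD, n = 4 each). Lgals3 was also called lower in OV in IVTIII (-0.83), GA (-1.14), SMART (-0.78) and SM37 (-0.75), and had 0.82 without a call in GA at 10 pg. Adam17, the other sheddase, had -0.26 in unamplified cDNA without a call and is named after its value was seen. Without array 1 of unamplified cDNA, 1 gene of this list was called.

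Of the proteins that carry the TAM signal inside the cell or interact with the receptors, 4 of 20 tested were called higher in OV and 1 lower, beside 8.24% and 6.89% of all genes, with a median of 0.04. Vav1, a signaling protein of blood cells, gave 2.03, 2.00, 1.93 and 2.42 (mean 2.10 ± 0.22), and Shc1, an adaptor of receptor tyrosine kinases, had 1.28 ± 0.38. Ifnar1, a chain of the type I interferon receptor through which TAM receptors restrain inflammation, had 0.73 ± 0.17, and Pik3r2, a regulatory subunit of phosphoinositide 3-kinase outside the 4 largest, had 0.47 ± 0.11. Fyn, a Src family kinase, was lower at -1.36 ± 0.39 on 4 arrays, all below 0. Vav1 was called again in GA (1.43) and SMART (1.08), and Fyn in IVTIII (-1.20). Called higher and lower were 0 and 3 of 11 in IVTIII, 1 and 0 of 18 in GA, 1 and 0 of 16 in SMART, 0 and 1 of 15 in SM37, 0 and 1 of 3 in SMART at 10 pg and none of 10 in GA at 10 pg. Of all genes, 11.1% and 10.2% were called higher and lower in IVTIII, 2.17% and 5.68% in GA and 2.40% and 0.937% in SMART. The shares were 5.74% and 8.18% in SM37, 5.52% and 3.11% in SMART at 10 pg and 2.49% and 2.53% in GA at 10 pg. Without array 4 of unamplified cDNA, 2 genes of this list were called in all.

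Genes that recognize phosphatidylserine or take up dying cells were called higher in 2 of 15 and lower in none in unamplified cDNA, beside 8.24% and 6.89% of all genes, with a median of 0.02. Calr, calreticulin, which acts as a signal for uptake on the cell surface, had 1.59 ± 0.25, and Mfge8, which bridges phosphatidylserine to integrins, had 0.86 ± 0.17 (SD, n = 4 each). Calr was called again in GA (1.87) and had 0.23 in IVTIII and 0.04 in SM37 without a call. Mfge8 was not called in amplified targets but lay above 0 in the mean in GA (0.36), SMART (0.35), SM37 (0.37) and SMART at 10 pg (0.30), and had -0.32 in GA at 10 pg. Of this list 1 of 5 was called higher in IVTIII (11.1% of all genes), 2 of 9 in GA (2.17%) and 2 of 10 in GA at 10 pg (2.49%). In SMART 1 of 11 was called lower (0.937%). None of 8 was called in SM37 (5.74% of all genes higher, 8.18% lower) and none of 3 in SMART at 10 pg (5.52% and 3.11%).

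Of the other genes named for growth arrest, like Gas6, 1 of 6 tested in unamplified cDNA was called higher and 1 lower, beside 8.24% and 6.89% of all genes. Their median was -0.21, and so few calls do not give a direction for the group. Gas1, a membrane protein that binds hedgehog ligands, gave 1.50, 1.44, 1.53 and 1.58 (mean 1.51 ± 0.06). Gas7, a regulator of actin and cell shape, gave -1.90, -0.99, -2.21 and -1.66 (mean -1.69 ± 0.52). Gas1 was called higher in OV also in IVTIII (0.79) and SM37 (1.38), had 1.48 in GA and 0.39 in SMART without a call, and had -2.42 in GA at 10 pg without a call. Without array 1, and again without array 4, 1 gene of this list was called.

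Among other receptor tyrosine kinases 4 of 39 were called higher in OV and 2 lower in unamplified cDNA, shares near the 8.24% and 6.89% of all genes, and the median was -0.01. Ptk7, a pseudokinase of planar cell polarity, had 1.60 ± 0.29, and Ddr1, a collagen receptor of epithelia, had 1.45 ± 0.16, while Ddr2, a collagen receptor of mesenchymal cells, had -0.81 ± 0.26 and was called lower. Epha7, an ephrin receptor, had 0.67 ± 0.14 (SD, n = 4 each). Erbb4 (0.39) and Igf1r (-0.50), outside the 4 largest, were called as well. The median absolute log2 ratio of the 39 genes was 0.28, and Axl had -0.28 and Tyro3 -0.16. Without array 1, 3 genes of this list were called. In amplified targets 2 of 12 were called lower in IVTIII (10.2% of all genes) and 1 of 19 in GA (5.68%). In SM37 2 of 26 were called lower (8.18%), and in GA at 10 pg 1 of 13 (2.53%). The only call higher was 1 of 26 in SM37 (5.74%). None of 25 was called in SMART (2.40% of all genes higher, 0.937% lower), nor the 1 tested in SMART at 10 pg (5.52% and 3.11%).

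**Figure D4:**
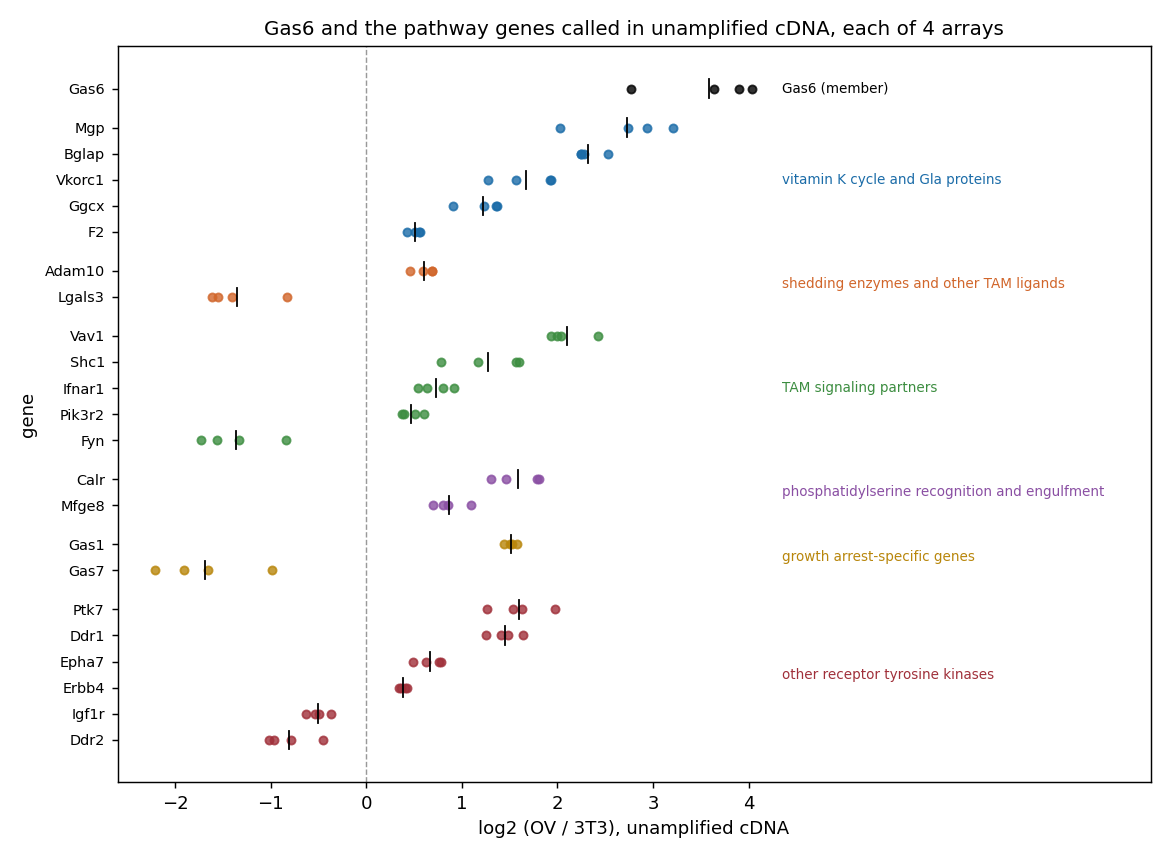
Log2 ratio of OV over 3T3 in unamplified cDNA (x axis) of Gas6 and of every pathway gene called at an LOD above 0 (y axis, grouped and colored by list), with 1 point per array and a black bar at the mean of 4 arrays. Gas6 has the highest mean at 3.58, followed by the Gla proteins Mgp (2.73) and Bglap (2.32), and Gas7 has the lowest at -1.69.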

How the data were processed

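Each probe carried a deposited log2 ratio of the dyes, which the authors made from background-subtracted intensities by print-tip lowess in limma, and they were used as deposited. Array medians lay between -0.01 and 0.02, so the ratios are centered, and the direction of the dyes stays likely rather than stated. Of 21997 probes 231 controls were left out, 16632 of the rest had 1 symbol in the platform annotation, 139 several and 4995 none, and 15952 matched a RefSeq gene. Probes of 1 symbol were averaged. Genes with values on all arrays of a comparison were fitted with limma 3.58.1 (lmFit, eBayes) in R 4.3.3 and called at an LOD above 0 with a prior proportion of 0.01, or, for replicas and dye terms, at a Benjamini-Hochberg adjusted p under 0.05. The script was tested on simulated data. Figures used matplotlib 3.10.9.

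The members and the gene lists were chosen with earlier results of these data known. Named genes were the members, up to 4 called genes per list with the largest ratio in unamplified cDNA (up to 4 markers per list), the 5 genes closest to Gas6 and to Axl, and Xist and Cdkn2a, with exceptions stated. Amounts follow the methods where labels give other units. Alternatives were the filter on missing values, the threshold, robust variance, a dye term, scaling, centering, probes in place of genes, a replicate block and leaving out each array. Spot intensities and probe sequences were not analysed here, so the precision rests on the number of arrays.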

Additional observations from a re-analysis of the deposited data

Results flagged for a closer look

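Axl in SM37 had an array far from the others. Array 3 gave -0.79 where the other arrays lay between -0.35 and -0.26, so its gap to the nearest array was 0.833 of the whole range. Of 23 sets of 4 member values checked, 1 had such an array, and chance gives about 1 in 20.

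Axl was above 0 on every array of IVTIII and below 0 on every array of unamplified cDNA, SMART, SM37 and SMART at 10 pg. The mean of unamplified cDNA minus that of IVTIII was -0.36 on the log2 scale. IVTIII exceeded SMART by 0.49, SM37 by 0.51 and SMART at 10 pg by 0.36. These differences between comparisons were not tested, and the IVTIII values, from 0.03 to 0.12, lay close to 0. Removal of the IVTIII array whose labels contradict themselves leaves values from 0.03 to 0.12.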

How the results depend on the processing

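At an adjusted p under 0.05 in limma in place of an LOD above 0, more genes were called: 5644 against 1842 in unamplified cDNA, 2488 against 964 in IVTIII, 1697 against 503 in GA, 553 against 292 in SMART, 3109 against 994 in SM37, 396 against 111 in SMART at 10 pg and 810 against 276 in GA at 10 pg. In unamplified cDNA these were 5644 of 12169 genes tested, 2820 higher and 2824 lower in OV. Beside that share, 8 of 14 vitamin K and Gla genes were called (7 higher, 1 lower) and 3 of 5 shedding genes. For TAM signaling it was 11 of 20, and for phosphatidylserine recognition 9 of 15. For growth arrest it was 4 of 6, and for other receptor tyrosine kinases 21 of 39. A dye term gave 281 calls in GA and 176 in GA at 10 pg. With the assumed dye-swap pairs as a replicate block, calls were 137 in GA at 10 pg, 2264 in unamplified cDNA, 922 in IVTIII, 341 in GA, 328 in SMART, 880 in SM37 and 157 in SMART at 10 pg. The labels do not state these pairs, and the correlation within them was -0.27 to 0.45. In GA from 10 ng the deposited ratios of arrays 1 and 2 (r -0.70) and 3 and 4 (r -0.86) were the most alike in size, across genes.

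Leaving out 1 array gave 899 to 1989 calls in unamplified cDNA, 617 to 826 in IVTIII, 236 to 403 in GA, 88 to 437 in SMART, 639 to 796 in SM37, 68 to 86 in SMART at 10 pg and 89 to 266 in GA at 10 pg. In the lists it gave 4 to 5 calls for vitamin K and Gla proteins, 1 to 2 for shedding, 2 to 6 for TAM signaling, 2 to 3 for phosphatidylserine recognition, 1 to 3 for growth arrest and 3 to 5 for other receptor tyrosine kinases. With the labeled direction the Gas6 mean stayed above 0 throughout, at 3.44 to 3.86 in unamplified cDNA and 0.11 to 1.27 in SMART at 10 pg, where 2 arrays had a value. Between OV replicas 1 member was called under every alternative run, and 0 for the dye term. Of 143 member means under settings that kept all arrays, 4 moved where Mertk had 1 array and thus no spread to compare with, and 1 changed sign. Of 107 with an array left out, 4 changed sign. Depth is unknown, so a missing value was not read as absence.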
